A study of Homo sapiens with 6 samples.

Results

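The plasminogen activators PLAU and PLAT, the urokinase receptor PLAUR, the serpin SERPINE2, the membrane protease matriptase (ST14), its Kunitz-type inhibitors SPINT1 and SPINT2, and the receptor tyrosine kinases MET and MST1R were examined in pancreatic cancer cells sorted by surface L1CAM. These 9 genes were selected by name, through the Ensembl identifiers of the count table, and all 9 were found among its 19469 genes. The cells were L3.6pl, an established human line of pancreatic adenosquamous carcinoma that the study traces to a lymph node metastasis (the cell line label reads L6.6pl, the titles L3_6PL). They were grown in serum-containing medium without any treatment and separated by FACS, with an antibody against L1CAM, into L1high (labelled L1CAM_POSITIVE) and L1low (labelled L1CAM_NEGATIVE) populations of the same line, and 3 RNA-seq libraries of each were counted. The study's methods speak in general of independent repeats with triplicate samples, but do not say whether the 3 sequenced libraries of a group came from separate cultures or sorts. The p-values therefore cover only the spread between these libraries, which may be technical.

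Plasmin is a broad serine protease that cells obtain by cutting circulating plasminogen at their surface. Urokinase, held there by its receptor, and tissue-type plasminogen activator make that cut, and serpins such as SERPINE2 trap both activators. Matriptase is anchored in the membrane of epithelial cells, where it activates the precursors of urokinase and of hepatocyte growth factor, the ligand of MET, and is held in check by the inhibitors that SPINT1 and SPINT2 encode. MST1R encodes RON, the closest relative of MET, whose ligand MSP is also released from its precursor by proteolysis. These proteins are known in carcinoma for roles in matrix turnover and cell scattering. RNA was measured here, and neither protease activity nor receptor activation was.

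Each library held between 16334610 and 21064685 counted reads, and the members held from 154 to 16732 counts in a library. Within L1high, replicates 1 and 3 were closest (3.66, as chi-square divided by degrees of freedom), while replicate 2 stood further from both (7.03 and 11.5). Within L1low the values were 3.73 for replicates 1 and 2, 5.62 for 2 and 3, and 9.45 for 1 and 3. The study's own table of this comparison leaves out L1high replicate 3, and no reason was found in its text, so all 6 libraries were used and results that depend on a library are given without it. L1CAM itself, the sorting marker, stood at 84.0, 69.8 and 89.5 CPM (read counts scaled to library size with TMM factors) in L1high replicates 1, 2 and 3 and at 17.7, 23.7 and 20.0 CPM in the L1low libraries. All 6 epithelial markers on a fixed list (EPCAM, CDH1, KRT8, KRT18, KRT19 and KRT7) were measured, with a summed level of 4232 to 4785 CPM in L1high and 4780 to 5130 CPM in L1low libraries. That sum follows KRT19, called higher at a log2 fold change of 0.63, and KRT7 (0.16, not called), while the other 4 had lower estimates, of which EPCAM (-0.30) was called. Of 18 fibroblast, endothelial and leukocyte markers, 4 were measured (LUM, COL3A1, PECAM1 and CD68). The other 14 were not among the genes with deposited counts, so their levels cannot be given. They include 5 of the 7 fibroblast markers. The summed level of the 2 fibroblast markers was 79.9 to 90.8 CPM in L1high and 131 to 151 CPM in L1low libraries, nearly all of it LUM. Of 10 genes known to respond to cell handling, such as FOSB and ATF3, 5 were called higher in L1low cells and none lower. These calls are from the edgeR test described next, in which 4.58% of all genes were called higher and 3.37% lower. The summed level of the 10 genes was 8268 to 8890 CPM in L1high and 10188.5 to 10923 CPM in L1low libraries. The part of handling or of fibroblast-type transcripts in the results that follow was not tested. In sorted populations, fewer cells expressing a gene and less RNA of it per cell cannot be told apart.

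Of the 9 genes, MET rose in L1low cells and SERPINE2 and SPINT1 fell. A gene was called when edgeR's quasi-likelihood test gave it an adjusted p (Benjamini-Hochberg, over 19467 genes) under 0.05, and log2 fold changes are L1low over L1high, so that positive values are higher in L1low. The 3 calls are 33.3% of the 9 members, beside 7.95% of all genes tested. In that background, 4.58% of genes were called higher and 3.37% lower. Without adjustment, 6 of the 9 members had a p under 0.05 in edgeR, as did 23.3% of all genes tested. The median log2 fold change of the members was -0.20, beside -0.0087 for all genes tested. In 5 of the 9 members (55.6%) the L1low libraries lay wholly on one side of the L1high libraries, 4 of them below and 1 above, where 28.8% of all genes did so. The plot of levels in each library shows these separations, and the plot of fold changes gives their intervals. The standard errors of the members, from 0.06 to 0.11, all lay below the median of 0.12 over all genes tested. The shares of the members and of all genes are therefore not matched for precision. The members were also chosen with earlier results of these data known.

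**Figure D1:**
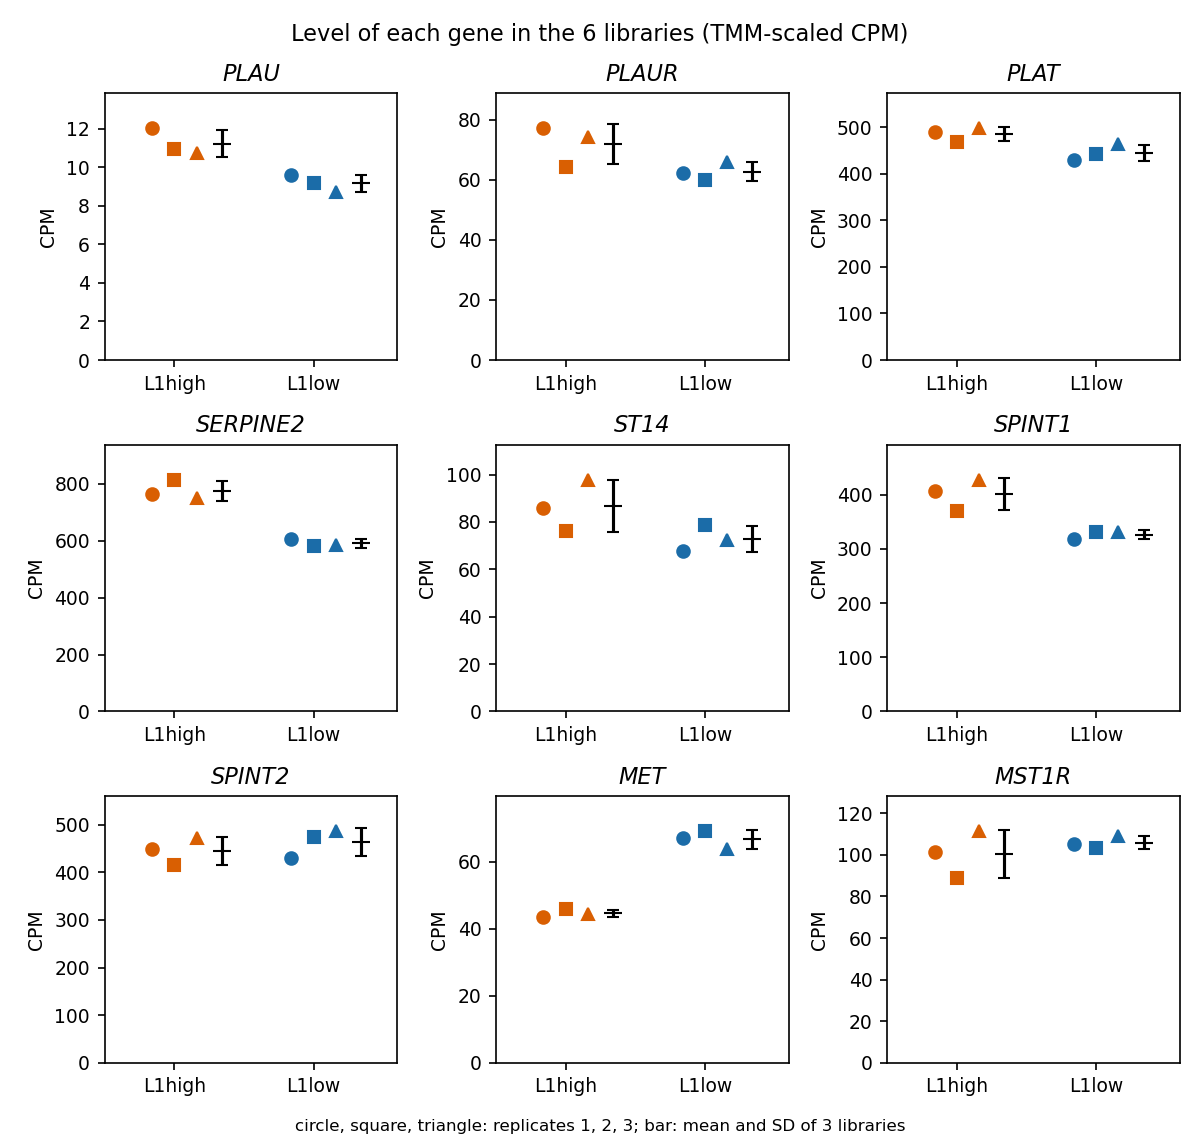
Level of each of the 9 genes in CPM (y axes from 0, 1 scale per gene) in the 3 L1high and 3 L1low libraries, with the mean and SD of each group beside the points. MET lies higher in all L1low libraries, SERPINE2, SPINT1, PLAU and PLAT lie lower in all of them, and the groups overlap for PLAUR, ST14, SPINT2 and MST1R.

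**Figure D2:**
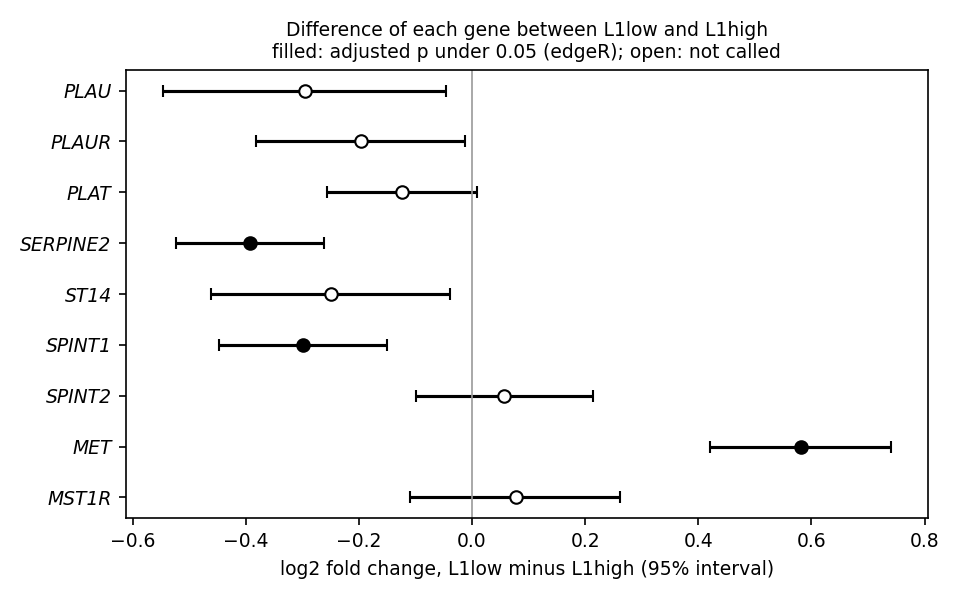
Log2 fold change (L1low minus L1high, x axis) of each gene over all 6 libraries, with its unadjusted 95% interval as a bar and filled points for genes called by edgeR. MET at 0.58 is the 1 gene called higher, and SERPINE2 at -0.39 and SPINT1 at -0.30 are called lower.

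Both plasminogen activators had lower estimates in L1low cells, and neither was called. PLAU (ENSG00000122861, plus strand, chr10:73909177-73917496 on GRCh38) encodes urokinase. It stood at 12.02, 10.95 and 10.7 CPM in the L1high libraries and at 9.58, 9.19 and 8.70 CPM in the L1low libraries, both in the order of replicates 1, 2 and 3, which holds for every gene. Every L1low library lay below every L1high library, although the gap between the groups was small. PLAU had a log2 fold change of -0.30 (standard error 0.11, edgeR adjusted p = 0.145) with a 95% interval from -0.55 to -0.05, which is not adjusted for the number of genes. PLAU rests on the fewest reads of the 9 genes, and the lncRNA gene C10orf55 on the opposite strand shares 915 of its 2949 annotated exon bases. C10orf55 had between 38 and 56 counts in a library and was not called (log2 fold change -0.28, edgeR adjusted p = 0.471). The libraries were stranded, but the strand setting of the counting is not given in the sources used here.

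PLAT (ENSG00000104368, minus strand, chr8:42174718-42207709) encodes tissue-type plasminogen activator and had far more reads than PLAU in every library. Its levels were 490.1, 468 and 497 CPM in the L1high libraries and 429.9, 442 and 464 CPM in the L1low libraries. The groups again did not overlap, but L1low replicate 3 came close to the lowest L1high library. Its log2 fold change of -0.12 (standard error 0.06, edgeR adjusted p = 0.242) had a 95% interval from -0.26 to 0.01. 

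PLAUR (ENSG00000011422, minus strand, chr19:43646095-43670547), the receptor that holds urokinase at the cell surface, stood at 77.1, 64.2 and 74.3 CPM in L1high and at 62.3, 59.8 and 66.0 CPM in L1low libraries. L1high replicate 2 fell within the L1low range, while the other L1high libraries lay above it. For PLAUR the log2 fold change was -0.20 (standard error 0.08, edgeR adjusted p = 0.188), with a 95% interval from -0.38 to -0.01.

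SERPINE2 (ENSG00000135919, minus strand, chr2:223975045-224039318) encodes protease nexin-1, a serpin that inhibits thrombin and both plasminogen activators, and fell in L1low cells. Its levels were 763, 814.5 and 749 CPM in the L1high libraries, or 775 ± 34.6 (SD, n = 3). In the L1low libraries they were 608, 581 and 583 CPM, or 591 ± 14.9 (SD, n = 3). The highest L1low library thus lay well below the lowest L1high library. SERPINE2 had a log2 fold change of -0.39 (standard error 0.06, 95% interval from -0.52 to -0.26, edgeR adjusted p = 0.00193), a fall of 23.8%. SERPINE2 was called in all 6 fits that each left out 1 library, with log2 fold changes from -0.41 to -0.36. RefSeq (GRCh38.p14) lists start sites of SERPINE2 at 224031478 and 224038640 on the minus strand. The 250 bases before the first of these, chr2:224031479-224031728, are shown 5′ to 3′ because SERPINE2 is one of the 3 genes called and no annotated exon covers them. Capitals mark CCAAT (or its reverse complement ATTGG) and GGGCGG (or its reverse complement CCGCCC).
SERPINE2 upstream: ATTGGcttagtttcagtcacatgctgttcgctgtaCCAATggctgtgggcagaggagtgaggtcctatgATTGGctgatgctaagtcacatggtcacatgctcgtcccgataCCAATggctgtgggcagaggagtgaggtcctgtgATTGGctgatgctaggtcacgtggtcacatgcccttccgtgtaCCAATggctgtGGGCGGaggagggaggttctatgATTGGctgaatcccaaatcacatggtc
This window held CCAAT 7 times, 3 on the coding strand and 4 on the other, and GGGCGG 1 time. Most of the 7 lie in similar copies of a repeated stretch, so they are not separate occurrences. In those copies CCAAT begins at -215, -138 and -61 and ATTGG at -181, -104 and -27 relative to the start. CCAAT was added to the search after this window had been seen, so its count is a description of a motif chosen for it. Of 35116 RefSeq upstream windows of 250 bases, 32.0% held at least 1 CCAAT and 42.6% at least 1 GGGCGG on either strand. The window before the other start, which lies nearer the 5′ end of the gene, held no CCAAT and 2 copies of GGGCGG. Which start these cells use was not examined.

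Ratios of counts within a library do not depend on how libraries are scaled, and 7 pairs of members were compared in this way with an exact two-sided permutation test over the 6 libraries, whose smallest possible p is 0.1. The ratio of PLAT to SERPINE2 was 0.643, 0.575 and 0.664 in L1high and 0.708, 0.760 and 0.796 in L1low libraries. It was higher in every L1low library, with a difference of 0.27 on the log2 scale (exact p = 0.1, adjusted p = 0.233 over the 7 pairs). The ratio of PLAU to SERPINE2 overlapped between the groups (log2 difference 0.10, exact p = 0.2, adjusted p = 0.28). The ratio of PLAU to PLAT was likewise not separated (log2 difference -0.17, exact p = 0.2, adjusted p = 0.28), nor was that of PLAU to its receptor PLAUR (log2 difference -0.10, exact p = 0.4, adjusted p = 0.467).

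Other genes of the plasminogen system moved in both directions. Of 18 genes on the list, 12 were measured, and of these 3 rose, LRP1 and ENO1 among them, SERPINB2 fell and 8 were not called. Of all genes tested, 4.58% were called higher and 3.37% lower. The median log2 fold change of the 12 was -0.10, beside -0.0087 for all genes tested. SERPINB2, the intracellular plasminogen activator inhibitor PAI-2, stood at 36.1, 34.7 and 33.3 CPM in L1high and at 13.1, 11.0 and 12.9 CPM in L1low libraries, a log2 fold change of -1.49 (standard error 0.10, edgeR adjusted p = 4.94e-06). No L1low library came near the L1high range, and the fall was larger than that of any of the 9 members. LRP1, the endocytic receptor that clears complexes of proteases with serpins, rose from 92.5 ± 14.7 to 162 ± 3.13 CPM (SD, n = 3 each), a log2 fold change of 0.81 (edgeR adjusted p = 4.52e-04). ENO1, a glycolytic enzyme that also binds plasminogen at the cell surface, rose by a log2 fold change of 0.27 (edgeR adjusted p = 0.0174) and was not called without L1high replicate 1 (adjusted p up to 0.099 over the fits that left out a library) or without L1low replicate 2. Among the 8 not called were S100A10 and ANXA2, which together bind plasminogen and its activator, at log2 fold changes of -0.15 and -0.055. Plasminogen itself (PLG) was not among the genes with deposited counts, so its level cannot be given.

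The matriptase side held 1 of the 2 falls. ST14 (ENSG00000149418, plus strand, chr11:130159782-130210362), which encodes matriptase, stood at 86.1, 76.1 and 97.8 CPM in L1high and at 67.8, 78.6 and 72.2 CPM in L1low libraries. L1low replicate 2 exceeded L1high replicate 2, so the groups overlapped. Its log2 fold change of -0.25 (standard error 0.10, 95% interval from -0.46 to -0.04) was not called (edgeR adjusted p = 0.144). Without L1high replicate 2 it was -0.34 and called (edgeR adjusted p = 0.0458), the 1 fit without a library in which it was.

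SPINT1 (ENSG00000166145, plus strand, chr15:40844018-40858207) encodes HAI-1, a membrane-bound inhibitor of matriptase and of hepatocyte growth factor activator, and fell in L1low cells. It stood at 407, 369 and 428 CPM in L1high, or 401.5 ± 29.6 (SD, n = 3), and at 317.5, 331 and 330.4 CPM in the L1low libraries, or 326 ± 7.68 (SD, n = 3). L1high replicate 2 was the lowest of its group and still lay above every L1low library. SPINT1 had a log2 fold change of -0.30 (standard error 0.07, 95% interval from -0.45 to -0.15, edgeR adjusted p = 0.0199), a fall of 18.7%. The call was sensitive to single libraries. Log2 fold changes ran from -0.36 to -0.24 when each library was left out in turn, and SPINT1 stayed called without L1high replicate 2 or L1low replicate 3 only. It was not called without L1high replicate 1 (adjusted p = 0.11), L1high replicate 3 (adjusted p = 0.0654), L1low replicate 1 (adjusted p = 0.0649) or L1low replicate 2 (edgeR adjusted p = 0.0931).

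The lncRNA gene SPINT1-AS1 lies on the opposite strand of SPINT1 and shares 100 of its exon bases. It had 420, 395 and 366 counts in L1high and 213, 218 and 311 in L1low libraries, with a log2 fold change of -0.56 (edgeR adjusted p = 0.0401). Of the fits without a library, 1 of 6 called it, that without L1low replicate 3. Because the strand setting of the counting is not known, reads of the shared bases cannot be assigned to either gene. RefSeq lists starts of SPINT1 at 40844048 and 40844477, and the 220 bases upstream of the first that no annotated exon covers, chr15:40843798-40844017 on the plus strand, are given here since SPINT1 was called. Capitals mark GGGCGG or CCGCCC.
SPINT1 upstream: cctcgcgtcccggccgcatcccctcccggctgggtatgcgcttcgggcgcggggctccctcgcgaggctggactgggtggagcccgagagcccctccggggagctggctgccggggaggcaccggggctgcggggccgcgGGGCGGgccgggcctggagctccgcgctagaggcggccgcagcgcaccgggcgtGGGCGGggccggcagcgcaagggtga
The whole 250-base window was 80.4% G or C, beside a median of 58.0% over the 35116 RefSeq windows, and held 3 GC boxes and no CCAAT.

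SPINT2 (ENSG00000167642, plus strand, chr19:38244035-38292615) encodes HAI-2, the other Kunitz-type inhibitor of matriptase, and was not called. Its levels were 449, 414 and 473 CPM in L1high and 430.3, 474 and 486 CPM in L1low libraries, which overlapped over most of their range. SPINT2 had a log2 fold change of 0.06 (standard error 0.07, edgeR adjusted p = 0.678) with a 95% interval from -0.10 to 0.21. The protein-coding gene ENSG00000267748 overlaps SPINT2 on the same strand over 242 exon bases, and it had 4641 to 5865 counts in a library without being called (log2 fold change 0.11, edgeR adjusted p = 0.367). How reads of bases that belong to both genes were counted is not given in the sources used here.

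The ratio of ST14 to SPINT1 did not separate the groups (log2 difference 0.05, exact p = 0.5, adjusted p = 0.5 over the 7 pairs). The ratio of ST14 to SPINT2 was 0.192, 0.184 and 0.207 in L1high and 0.158, 0.166 and 0.148 in L1low libraries. It was thus lower in every L1low library, by 0.30 on the log2 scale (exact p = 0.1, the smallest possible, adjusted p = 0.233).

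Of 16 listed partners and relatives of matriptase, 7 were measured. PRSS8, F2RL1 and EPCAM fell, CDCP1 rose and 3 were not called, where 3.37% of all genes tested were called lower and 4.58% higher. The median log2 fold change of the 7 was 0.09, beside -0.0087 for all genes tested. The list median turned to -0.21 without L1low replicate 2 and to -0.087 without L1high replicate 3. With genes under 10 counts in any library removed, it was -0.10. PRSS8 encodes prostasin, a membrane-anchored protease that acts together with matriptase in epithelia. It stood at 98.4, 84.7 and 100.5 CPM in L1high and at 70.3, 71.8 and 70.0 CPM in L1low libraries, a log2 fold change of -0.42 (standard error 0.08, edgeR adjusted p = 0.00745). Its call was lost without L1high replicate 1 (adjusted p = 0.0582). F2RL1, which encodes the protease-activated receptor PAR2, a matriptase substrate, had a log2 fold change of -0.30 (edgeR adjusted p = 0.0385) and was called in 2 of the 6 fits without a library. CDCP1, a transmembrane protein cut by serine proteases, had a log2 fold change of 0.28 (edgeR adjusted p = 0.023) and was likewise called in 2 of the 6. EPCAM, an epithelial adhesion protein that matriptase can cleave, lay at the threshold with -0.30 (edgeR adjusted p = 0.0496) and was called in 1 of the 6, that without L1high replicate 3. Without L1high replicate 1, none of the 4 was called. That fit called 674 of all genes, beside 1548 over all 6 libraries. Its log2 fold changes of PRSS8, F2RL1, EPCAM and CDCP1 were -0.39, -0.30, -0.30 and 0.32.

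MET (ENSG00000105976, plus strand, chr7:116672196-116798377), the receptor of hepatocyte growth factor, had the largest log2 fold change in size among the 9 genes. It stood at 43.5, 45.8 and 44.5 CPM in L1high, or 44.6 ± 1.18 (SD, n = 3), and at 67.2, 69.2 and 63.8 CPM in the L1low libraries, or 66.7 ± 2.75 (SD, n = 3). The 3 L1high libraries lay close together, and every L1low library was well above them. The raw counts behind these levels were 922, 941 and 731 in L1high and 1221, 1242 and 1129 in L1low libraries. MET had a log2 fold change of 0.58 (standard error 0.07, 95% interval from 0.42 to 0.74, edgeR adjusted p = 5.08e-04), a rise of 49.6%. MET was called in all 6 fits without a library, with log2 fold changes from 0.55 to 0.62, and it ranked 200 by p among the genes tested. In GENCODE release 44, which gave the coordinates here, no other gene overlaps MET. The 250 bases before its RefSeq start, chr7:116671946-116672195 on the plus strand, are shown since MET was the gene called higher, with GGGCGG in capitals.
MET upstream: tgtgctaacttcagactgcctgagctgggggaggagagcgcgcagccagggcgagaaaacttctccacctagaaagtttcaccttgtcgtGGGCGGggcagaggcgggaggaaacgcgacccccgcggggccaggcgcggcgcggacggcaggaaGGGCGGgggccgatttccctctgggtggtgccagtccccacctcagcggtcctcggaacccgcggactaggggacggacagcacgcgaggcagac
This window held 2 copies of GGGCGG, no CCAAT and was 68.4% G or C. The windows were also searched on both strands for TGANTCA (the AP-1 site), GGAATG (a TEAD core) and TATAAA, which 6.57%, 11.9% and 10.7% of the 35116 windows held. Among the 9 windows of the 6 members with an entry in that table (PLAU, PLAUR, SERPINE2, SPINT1, MET and MST1R), the 1 match to these 3 motifs was a TGAGTCA in the window of PLAUR, at positions -186 to -180 relative to its start.

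MST1R (ENSG00000164078, minus strand, chr3:49887002-49903873), which encodes RON, was not called. It stood at 101, 88.7 and 111 CPM in L1high and at 105, 103 and 109 CPM in L1low libraries, so that the L1low libraries lay within the L1high range. MST1R had a log2 fold change of 0.08 (standard error 0.08, edgeR adjusted p = 0.637), with a 95% interval from -0.11 to 0.26. Without L1high replicate 2, the lowest library, it was -0.005. The antisense gene ENSG00000230698, which shares 327 exon bases with MST1R, had 45 to 78 counts in a library and was not called (log2 fold change -0.04, edgeR adjusted p = 0.947). The ratio of MET to MST1R was 0.430, 0.517 and 0.400 in L1high and 0.639, 0.671 and 0.584 in L1low libraries. Every L1low ratio was above every L1high ratio, by 0.50 on the log2 scale (exact p = 0.1, the smallest possible, adjusted p = 0.233 over the 7 pairs). L1high replicate 2 was the lowest of its group for MST1R. For MET it was the highest by a small margin only (45.8 CPM, beside 43.5 and 44.5 CPM in replicates 1 and 3).

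Of 18 genes listed as ligands, adaptors and regulators of MET and RON, 16 were measured, 4 rose, none fell and 12 were not called. Over all genes tested, 4.58% were called higher and 3.37% lower. The median log2 fold change of the 16 was 0.18, beside -0.0087 for all genes tested. SHC1, an adaptor that links receptor tyrosine kinases to RAS, stood at 427, 394 and 434 CPM in L1high and at 599, 593 and 635.5 CPM in L1low libraries. The groups were far apart, with a log2 fold change of 0.54 (standard error 0.06, edgeR adjusted p = 3.05e-04). PTPRJ, a receptor phosphatase that removes phosphate from MET, rose from 11.9 ± 0.745 to 18.2 ± 1.17 CPM (SD, n = 3 each), a log2 fold change of 0.61 (edgeR adjusted p = 0.0045). LRIG1, a membrane protein that lowers the levels of MET and of EGF receptors, rose by a log2 fold change of 0.45 (edgeR adjusted p = 0.0121) and was not called without L1high replicate 1 (edgeR adjusted p up to 0.0779 over the fits without a library) or without L1low replicate 2. PLXNB1, a semaphorin receptor that associates with MET and RON, had a log2 fold change of 0.38 (edgeR adjusted p = 0.048) and was called in 1 of the 6 fits without a library, that without L1high replicate 3. SHC1 and PTPRJ were called in all 6. The adaptors GRB2, GAB1 and SOS1 were not called, with log2 fold changes of -0.01, 0.13 and 0.07. MST1, which encodes the ligand MSP of RON, had 62 to 74 counts in a library and a log2 fold change of 0.26 that was not called (edgeR adjusted p = 0.42). The ligand gene HGF was not among the genes with deposited counts, so its level cannot be given.

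**Figure D3:**
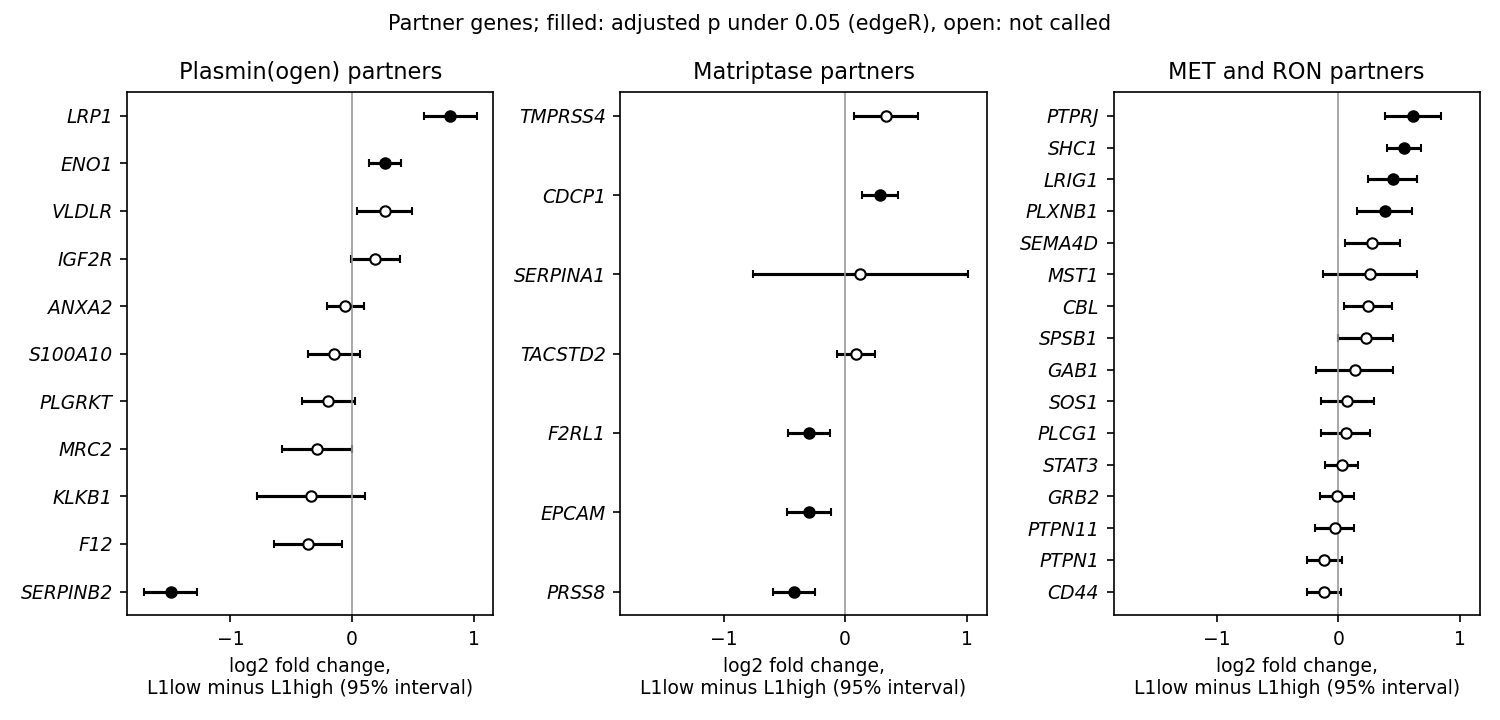
Log2 fold change (L1low minus L1high, x axes) and unadjusted 95% interval of measured partner genes of the plasminogen system, matriptase (7) and MET or RON (16), with filled points for genes called by edgeR. SERPINB2 at -1.49 and LRP1 at 0.81 lie furthest from 0, and the 4 filled points among the MET and RON partners are all on the higher side.

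Levels were compared between genes after division by transcript length, as CPM per kilobase of annotated exon bases. In L1high cells SPINT1 stood highest at 113 ± 8.35 (SD, n = 3), followed by SPINT2 at 87.6 ± 5.79, SERPINE2 at 86.6 ± 3.87 and PLAT at 62.5 ± 1.95. The ranges of SPINT2 and SERPINE2 overlapped, so their order is not set by these libraries. ST14 (21.1 ± 2.64), MST1R (19.1 ± 2.17) and PLAUR (16.1 ± 1.52) came next by this length, and each overlapped its neighbour. MET (6.17 ± 0.163) and PLAU (3.81 ± 0.235) stood lowest in L1high cells and did not overlap. In L1low cells the order was the same apart from MST1R (20.2 ± 0.580) standing above ST14 (17.7 ± 1.32), and MET reached 9.24 ± 0.381 CPM per kilobase against 3.11 ± 0.150 for PLAU. SPINT1 (92.2 ± 2.17) and SPINT2 (91.2 ± 5.79) overlapped in the L1low libraries. With the length of the canonical transcript in place of all exon bases, SERPINE2 stood highest in L1high cells at 348 and SPINT1, at 135 CPM per kilobase, came after SPINT2 and PLAT, while MET (6.54) and PLAU (4.79) kept the last places. PLAUR, at 52.6 ± 4.96 CPM per kilobase of canonical transcript in L1high cells, stood above ST14 (26.2 ± 3.29) and MST1R (21.04 ± 2.39) without overlap. The order above MET and PLAU thus depended on the length used.

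By the correlation of log2 CPM over the 6 libraries, among 6931 other genes averaging 5 or more on that scale, the genes most like MET were BCL6 (r = 0.998), SCD (r = 0.997) and UBE2H (r = 0.996). Those most like SERPINE2 were SLC35B1 (r = 0.999), RRM2 (r = 0.999) and SERPINB11 (r = 0.998), and those most like SPINT1 were MYH14 (r = 0.998), C3 (r = 0.997) and KIF18B (r = 0.993). For the 6 genes not called, the nearest gene was WWC1 for PLAU, KRT8P3 for PLAUR, S100A14 for PLAT, SOX13 for ST14, KIAA2013 for SPINT2 and FLII for MST1R, with r from 0.984 to 0.999. These values are descriptions over 6 points that fall into 2 groups and share library depth, and any gene that separates the groups would score high against a member that does.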

How the data were processed

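RNA-seq of 6 libraries, 3 L1high and 3 L1low, was taken from the deposited table of raw read counts per gene. The authors made these counts from stranded mRNA libraries, sequenced in pairs and trimmed, with BWA for alignment (GRCh38) and featureCounts for assignment to genes of Ensembl release 94. Tool versions and the strand and multi-mapping settings are not given in the sources used here. BWA is not splice-aware, so junction reads may be lost or clipped. Each of the 19469 genes exceeded 1 CPM in at least 2 libraries.

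Symbols, coordinates, overlaps and exon lengths came from GENCODE release 44, on the same build, which matched 19344 identifiers. The gene models of Ensembl release 94, with which reads were assigned, were not examined and may differ from these. Upstream sequences came from RefSeq (GRCh38.p14). In R 4.3.3, edgeR 4.0.16 was run on all 6 libraries with TMM factors, filterByExpr (19467 genes kept) and the quasi-likelihood test, with p-values adjusted by Benjamini-Hochberg. A standard error is the log2 fold change over the square root of F, and a 95% interval uses the test's degrees of freedom. Log2 CPM had a prior count of 2. Ratios were tested by exact permutation in SciPy 1.17.1. Tested on counts simulated for this comparison (19468 genes, 200 with a 2-fold change up or down), the fit recovered 188 and made 6 false calls. That change is larger than the estimate of any member, so the recovery of changes as small as theirs was not tested.

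The members and lists were chosen with earlier results of these data known, and the CCAAT motif was added after the upstream windows were seen. The text names the 9 members, genes overlapping them, L1CAM, called partner genes (at most 8 a list) with HGF, MST1 and PLG, and the nearest genes by correlation, in full for called members. The values of 1 plasminogen system gene are not reported here. Other partners, the marker genes and FOSB and ATF3 were named after their values were seen. Alternatives were DESeq2 1.42.0, RLE and upper-quartile scaling, other count filters, each library left out, the replicate number as a block, and, added later, canonical transcript length.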

Additional observations from a re-analysis of the deposited data

How the results depend on the processing

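The log2 fold changes of MET (0.55 to 0.62) and SERPINE2 (-0.41 to -0.36) kept their direction and call under all 12 alternatives, with adjusted p from 5.62e-08 to 0.00859 and from 6.84e-06 to 0.0269 in edgeR or DESeq2, as did L1CAM (-2.10 to -1.89). SPINT1 kept its call in 8 of 12. Without a library MST1R ranged from -0.005 (without L1high replicate 2) to 0.166. Of the members, from 2 to 4 were called without a library, 1 higher in each fit and from 1 to 3 lower. All genes called ranged from 627 (without L1low replicate 2) and 674 (without L1high replicate 1) up to 1473, with 393 to 859 higher and 234 to 614 lower. Called partners ranged from 2 to 4 (plasminogen system), 0 to 3 (matriptase, 0 without L1high replicate 1) and 2 to 4 (MET and RON), and the medians from -0.154 to -0.0275 (plasminogen system, the latter without L1high replicate 2) and -0.207 to 0.12 (matriptase). With at least 10 counts in every library the matriptase median was -0.104, since SERPINA1, with 9 to 27 counts, dropped out. Same-numbered libraries shared deviations with correlations of 0.217, 0.0803 and 0.489 over 6932 genes, and libraries of different numbers with -0.439 to 0.293. The titles do not say whether equal numbers mark pairs, and they were not treated as pairs. With the replicate block 2363 genes were called, beside 1548 without it. Of the 2363, 1143 were lower, and the same 3 members were called. The filter on low counts removed 2 genes and tests little, and precision is limited by 3 libraries a group.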
